A study of Saccharomyces cerevisiae with 6 samples.

Results

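The 10 genes described here are among the longest protein-coding genes of budding yeast. They were listed by gene name, at a time when earlier results of these data were known. All 10 were found among the 18646 transcriptional units of the deposited table, of which 6692 are protein coding. RNA was sequenced from 3 cultures of the set2::His3 knockout in the W303 background (SET2 KO, here Δset2) and 3 cultures of W303 with an intact SET2 gene (WT). Each culture came from its own colony and was grown in rich medium with adenine to mid-log phase, and all 6 libraries of rRNA-depleted total RNA were sequenced in a single pool. The labels name a HIS3 marker for the deletion, whereas the study's methods name a KanMX cassette. The mutant and its parent share the W303 background, and the labels give no further allele for either.

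Set2 methylates lysine 36 of histone H3 over the bodies of transcribed genes. This mark recruits the Rpd3S histone deacetylase, which keeps transcription from starting inside genes, and its loss is known for transcripts that begin within long genes and within genes that are seldom transcribed. Gene length is therefore of interest in a Δset2 strain. The genes also encode large proteins with well-defined roles, namely a motor, a ribosome assembly ATPase, an activator-binding subunit, a ubiquitin ligase, a pair of Ras inhibitors, 3 lipid transfer proteins, and a BEACH domain protein.

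Total counts were between 5135226 and 22536840 in the Δset2 libraries and between 10568372 and 15015735 in the WT libraries. SET2 itself had 20, 9, and 32 reads in the Δset2 libraries, against 435, 298, and 459 reads in the WT libraries, so that each library fitted its label. Among the markers of mating type, the a-cell genes were expressed in both groups, with 69.9 FPKM in Δset2 and 85.9 FPKM in WT for STE6, the a-factor exporter, and BAR1, the protease that degrades alpha-factor, had a log2 fold change of -0.30 (adjusted P = 0.243, edgeR). Of 5 a-cell markers 0 were called by edgeR or by DESeq2, with 1 at an unadjusted P below 0.05, a level that 23.6% of all units passed. Of the 4 alpha-cell markers MF(ALPHA)2 had 0 reads in every library, and both that could be tested were called by edgeR and by DESeq2, in opposite directions. SAG1, the alpha-agglutinin, averaged 14.7 FPKM in Δset2 and 8.04 FPKM in WT, with a log2 fold change of 0.89 (adjusted P = 0.00149, edgeR). STE3, the a-factor receptor, had at most 5 reads in a Δset2 library and at most 22 in a WT library, with a log2 fold change of -2.44 (adjusted P = 0.00687, edgeR). The mean chi-square per unit between libraries was 19.7 to 34.5 within Δset2. WT 2 stood apart from WT 1 and WT 3, with 65.7 and 65.4 against them, compared with 14.7 between WT 1 and WT 3. Counts of members called or past a P level, and the shares by length, are also given without WT 2. The counts for the gene lists, the neighbors, and groups without overlap are given with WT 2 only.

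The unit of a gene includes its untranslated regions, and its length runs from its first to its last base in sacCer3. MDN1 (YLR106C, chromosome XII, 348828 to 363876, minus strand) had the longest protein-coding unit, at 15049 nt, with a coding sequence of 14733 nt. DYN1 (YKR054C, chromosome XI, 535422 to 548070, minus strand) had a unit of 12649 nt. TRA1 (YHR099W, chromosome VIII, 302670 to 314062, plus strand) had a unit of 11393 nt. These were the 3 longest nuclear protein-coding units. TOM1 (YDR457W, chromosome IV, 1369662 to 1379702, plus strand) measured 10041 nt. IRA2 (YOL081W, chromosome XV, 170786 to 180514, plus strand) measured 9729 nt, and its paralog IRA1 (YBR140C, chromosome II, 517234 to 526898, minus strand) measured 9665 nt. VPS13 (YLL040C, chromosome XII, 54094 to 63766, minus strand) lay between them at 9673 nt. CSF1 (YLR087C, chromosome XII, 306724 to 315932, minus strand) at 9209 nt was the eighth longest nuclear unit, so that the 8 genes named so far hold ranks 1 to 8. FMP27 (YLR454W, chromosome XII, 1043882 to 1051954, plus strand) with 8073 nt held rank 12, and BPH1 (YCR032W, chromosome III, 179414 to 186054, plus strand) with 6641 nt held rank 33. The set thus holds 10 long genes, not the 10 longest.

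All 10 genes have a coding sequence in 1 piece in the RefSeq annotation of the R64 assembly, whose coordinates are those of sacCer3. Reads were assigned without regard to strand, and a read touching a second unit was not counted, so the part of each unit outside all other units was computed from their start and end coordinates. This part was 93.5% of the unit for DYN1 and 94.8% for CSF1, and between 98.5% and 100% for the other 8 genes. MDN1, TOM1, VPS13, and FMP27 overlapped no other unit. Of the 76-nt windows in each of the 10 units, 0 occurred a second time in the reference genome, on either strand. IRA1 and IRA2 therefore share no exact read-length sequence in the reference. The W303 genome was not used here.

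Sequences upstream of the genes are shown for BPH1 and CSF1, which were higher in Δset2 as described below, and for MDN1, which was not. Each is the 150 bases before the first base of the unit, read 5′ to 3′ on the strand of the gene from the RefSeq R64 assembly. Capitals mark TATAAA or TATATA on either strand, the core letters of many yeast TATA boxes. The BPH1 window lies within CUT048 (179038 to 179414), an annotated cryptic unstable transcript on the same strand. Part of the CSF1 window, with its marked TTTATA, lies within the unit of GAA1 (316008 to 318128) on the other strand.
BPH1, chromosome III, 179264 to 179413, plus strand: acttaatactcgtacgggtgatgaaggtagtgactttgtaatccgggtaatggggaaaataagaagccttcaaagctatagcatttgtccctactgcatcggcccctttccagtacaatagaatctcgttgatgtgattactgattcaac
CSF1, chromosome XII, 315933 to 316082, minus strand: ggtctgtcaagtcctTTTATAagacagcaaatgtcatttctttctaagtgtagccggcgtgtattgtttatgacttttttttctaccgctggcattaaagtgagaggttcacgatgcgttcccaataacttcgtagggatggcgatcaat
MDN1, chromosome XII, 363877 to 364026, minus strand: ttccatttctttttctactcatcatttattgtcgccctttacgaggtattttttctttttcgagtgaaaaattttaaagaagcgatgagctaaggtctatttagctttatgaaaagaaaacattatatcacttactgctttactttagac

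TATAAA or TATATA was found in this window for 4 of 9 genes examined, CSF1, TOM1, VPS13, and FMP27, and in 39.7% of the 6663 nuclear protein-coding units that have a window of this length. BPH1 and MDN1 held neither motif. A run of AAAAAAA or its complement was found for CSF1 and TRA1, compared with 36.3% of all windows. These matches describe the letters and do not locate a promoter element.

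All 10 genes passed the filter on low counts, and the least read of them, BPH1 in Δset2 2, had 688 reads. A unit was called when edgeR's quasi-likelihood test gave an adjusted P below 0.05 over all 5317 units tested and the fold change was above 1.5. By this rule, 2 of the 10 genes were higher in Δset2, DYN1 and BPH1, and 0 were lower. Of all units tested, 2.84% were called higher and 0.733% lower. By adjusted P alone 3 genes were higher, with CSF1 added, where 4.48% of all units were. At an unadjusted P below 0.05 there were 5, with IRA1 and IRA2 added, and 23.6% of all units passed that level. In 4 genes (DYN1, BPH1, CSF1, and IRA1) every Δset2 library lay above every WT library, compared with 14.1% of all units, and in 1 gene (MDN1) every Δset2 library lay below, compared with 13.8% of all units. These counts depend on WT 2. With WT 2 left aside, IRA2 and VPS13 also lay wholly above, and TRA1 and TOM1 wholly below. The share of all units for that case was not computed. The number called was 1 (DYN1) without Δset2 2, WT 1, or WT 3 and by DESeq2, and remained 2 without WT 2, where 5.84% of all units were called higher and 1.10% lower. Without WT 2 the number past the adjusted P was 5, where 9.24% of all units passed that level in the higher direction, and the number at an unadjusted P below 0.05 was 6, where 30.5% of all units passed. The median log2 fold change (Δset2 over WT) was 0.24 over the 10 genes and -0.004 over all units tested. The values are relative to each library, and with bulk RNA fewer cells that express a gene and less RNA per cell cannot be told apart.

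**Figure D1:**
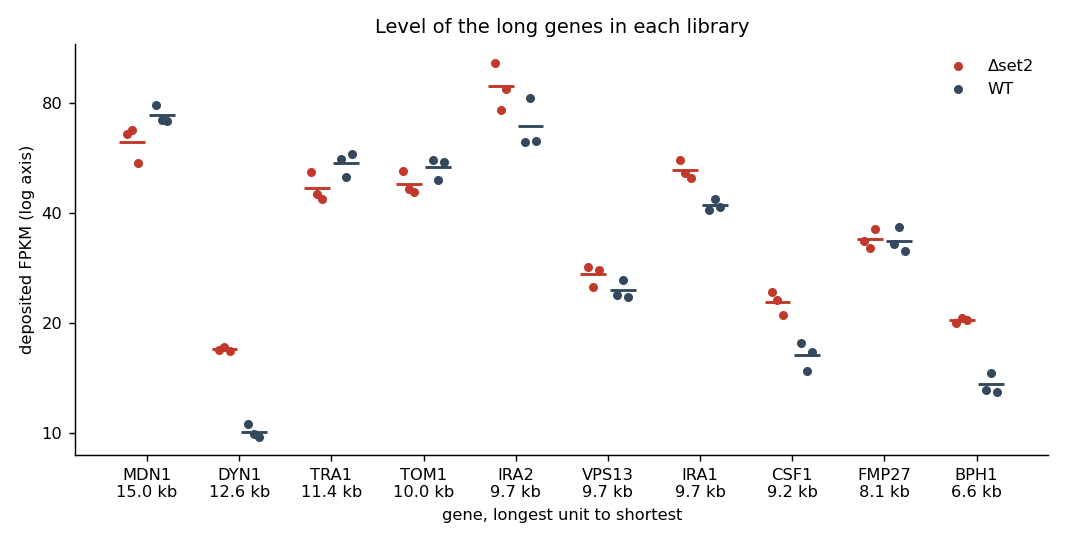
Deposited FPKM (log axis) of each gene in the 3 Δset2 libraries (red, left) and the 3 WT libraries (dark, right), with the group mean as a bar and genes ordered from the longest unit to the shortest. DYN1, BPH1, CSF1, and IRA1 show no overlap with Δset2 above WT, MDN1 shows none with Δset2 below, and the other 5 overlap.

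DYN1 encodes the heavy chain of cytoplasmic dynein, the minus-end directed microtubule motor that pulls the mitotic spindle into the bud neck. It had 16.9, 17.2, and 16.9 FPKM (fragments per kilobase of unit, scaled for library size) in Δset2 1, 2, and 3, against 10.6, 9.94, and 9.80 FPKM in WT 1, 2, and 3. The groups were far apart relative to their spread, and the Δset2 libraries hardly differed among themselves. DYN1 rose by a log2 fold change of 0.76 (SE 0.086, adjusted P = 0.000923, edgeR's quasi-likelihood test), a 1.69-fold difference. It was the lowest of the 10 genes in WT and stayed the lowest in Δset2. Its counts ranged from 1091 to 4897 reads. With each library left out in turn the log2 fold change lay between 0.73 and 0.79, and DYN1 was called every time.

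No other dynein gene was called. Of 12 genes for dynein subunits, the dynactin complex, and the cortical anchor, 11 could be tested, and 0 were called by edgeR or by DESeq2. At an unadjusted P below 0.05 there was 1, and 23.6% of all units passed that level. The median log2 fold change of the 11 was 0.04. LDB18, a dynactin subunit, had the smallest P value, with a log2 fold change of -0.30 (SE 0.13, adjusted P = 0.188, edgeR). NDL1, which targets dynein to microtubule ends, had -0.38 (SE 0.17, adjusted P = 0.223, edgeR). NUM1, the anchor at the cell cortex, is itself encoded by a unit of 8299 nt and had a log2 fold change of -0.07.

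BPH1 encodes a BEACH domain protein, whose human relative LYST is mutated in Chediak-Higashi syndrome. It had 20.1, 20.7, and 20.4 FPKM in Δset2 1, 2, and 3, against 13.1, 14.7, and 13.0 FPKM in WT 1, 2, and 3. As for DYN1, the Δset2 libraries were close to each other and lay above all WT libraries. The log2 fold change was 0.59 (SE 0.091, adjusted P = 0.00518, edgeR), a 1.51-fold difference that lies just past the fold threshold. Its adjusted P stayed below 0.05 with each library left out, but its fold fell under the threshold without Δset2 2, WT 1, or WT 3, with log2 fold changes of 0.58, 0.56, and 0.55. With the replicate number of the labels as a block the adjusted P was 0.0530.

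CSF1 is 1 of 3 members that encode bridge-like lipid transfer proteins, long rods with a hydrophobic groove along which lipids move between organelles. It had 24.4, 23.2, and 21.0 FPKM in Δset2 1, 2, and 3, against 17.6, 14.9, and 16.7 FPKM in WT 1, 2, and 3. The groups did not overlap, although their spread was wider than that of DYN1. The log2 fold change was 0.49 (SE 0.10, adjusted P = 0.0244, edgeR), a 1.40-fold difference that is below the fold threshold. The adjusted P was 0.111 without Δset2 1, 0.0707 without Δset2 3, 0.0507 without WT 1, and 0.102 without WT 3. With single libraries left out it thus passed only without Δset2 2 or WT 2. It passed in 7 of 10 other settings, but not with the replicate number of the labels as a block (0.116, edgeR). Nor did it pass by limma on log2 FPKM with pseudocounts of 1 (0.0513) or 0.1 (0.0511).

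VPS13, which moves lipids at contacts of the vacuole, the endosome, and mitochondria, had 28.6, 25.2, and 28.0 FPKM in Δset2 1, 2, and 3. In WT 1, 2, and 3 it had 23.9, 26.3, and 23.7 FPKM. These groups overlapped, and the log2 fold change of 0.15 (SE 0.096, adjusted P = 0.370, edgeR) did not pass. FMP27 had 33.6, 32.2, and 36.2 FPKM in Δset2 1, 2, and 3, against 33.0, 36.6, and 31.5 FPKM in WT 1, 2, and 3. Its log2 fold change of 0.02 (SE 0.099, adjusted P = 0.924, edgeR) was the smallest of the 10, and its sign turned when Δset2 3 or WT 3 was left out and when all libraries were thinned to the smallest total.

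The list of other bridge-like lipid transfer proteins and Vps13 adaptors held 5 genes, all tested. Of these, 2 were called higher and 0 lower, compared with 2.84% and 0.733% of all units tested. The median log2 fold change of the 5 was 0.50. YPR117W, the relative of FMP27, had a unit of 7772 nt and averaged 27.0 ± 1.39 FPKM in Δset2 and 15.8 ± 1.02 FPKM in WT (SD, n = 3 each). It rose by a log2 fold change of 0.78 (SE 0.094, adjusted P = 0.00143, edgeR). YPT35, an adaptor that brings Vps13 to endosomal and vacuolar membranes, rose by 0.77 (SE 0.17, adjusted P = 0.0315, edgeR) although its unit is only 835 nt. ATG2, the lipid transfer protein of autophagosome growth, passed by adjusted P alone, with a log2 fold change of 0.50 (SE 0.12, adjusted P = 0.0323, edgeR). By DESeq2, 1 of the 5 was called. YPR117W and FMP27 thus differed in their changes, though the difference itself was not tested.

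IRA1 and IRA2 encode GTPase-activating proteins that turn off Ras and so lower the activity of adenylate cyclase and protein kinase A. IRA1 had 56.1, 51.6, and 50.1 FPKM in Δset2 1, 2, and 3, against 40.8, 43.8, and 41.6 FPKM in WT 1, 2, and 3. Every Δset2 library was higher than every WT library, but the log2 fold change of 0.33 (SE 0.095, adjusted P = 0.0708, edgeR) passed neither threshold. By DESeq2 its adjusted P was 0.0402, with a log2 fold change of 0.32. IRA2 had 103, 76.6, and 87.7 FPKM in Δset2 1, 2, and 3, against 62.8, 82.7, and 63.3 FPKM in WT 1, 2, and 3. WT 2 lay above Δset2 2, and IRA2 had the widest spread of the 10 genes in either group, with a coefficient of variation of 15.1% in Δset2 and 16.4% in WT. The log2 fold change of IRA2 was 0.37 (SE 0.15, adjusted P = 0.172, edgeR). Without WT 2 it was 0.51 (adjusted P = 0.0293, edgeR), and that of IRA1 was 0.36 (adjusted P = 0.0425, edgeR).

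The proportion of the paralogs did not separate the strains. The ratio of IRA2 to IRA1 reads, which no scaling between libraries can alter, was 1.86, 1.49, and 1.76 in Δset2 1, 2, and 3 and 1.55, 1.90, and 1.53 in WT 1, 2, and 3. These groups overlapped, and the library with the highest ratio was WT 2. Of 13 other genes of Ras and cAMP signaling, 12 could be tested, and 0 were called by edgeR or by DESeq2. At an unadjusted P below 0.05 there was 1, and 23.6% of all units passed that level. The median log2 fold change of the 12 was 0.09. The gene with the smallest P value was SDC25, an exchange factor for Ras that acts against the Ira proteins, with a log2 fold change of 0.54 (SE 0.16, adjusted P = 0.0731, edgeR) at 2.92 FPKM in Δset2 and 2.01 FPKM in WT. TPK3, a catalytic subunit of protein kinase A, followed with -0.25 (SE 0.12, adjusted P = 0.253, edgeR).

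MDN1 encodes midasin, the AAA ATPase that strips assembly factors from maturing large ribosomal subunits. It had 65.8, 67.6, and 54.9 FPKM in Δset2 1, 2, and 3, against 79.2, 72.0, and 71.7 FPKM in WT 1, 2, and 3. All Δset2 libraries were lower, yet by little relative to the spread. The log2 fold change of -0.24 (SE 0.11, adjusted P = 0.244, edgeR) did not pass, nor did that of DESeq2 (-0.24, adjusted P = 0.243). All 7 partners of Mdn1 in large subunit assembly had a negative log2 fold change, with a median of -0.17, while 2632 of all 5317 units tested had a positive one. The 7 share the same 6 libraries, and RIX1 at -0.01 lies within the shift of 0.019 that upper quartile normalization gives all units. Of the 7, 0 were called by edgeR or by DESeq2. At an unadjusted P below 0.05 there were 2, and 23.6% of all units passed that level. NOP7, a factor that Mdn1 helps to remove, had -0.33 (SE 0.11, adjusted P = 0.0999, edgeR), and IPI3, a subunit of the Rix1 complex that docks Mdn1, had -0.30 (SE 0.13, adjusted P = 0.196, edgeR).

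TRA1 encodes the subunit through which the SAGA and NuA4 histone acetyltransferases contact transcriptional activators, and it belongs to the PIKK family although it lacks kinase activity. It had 51.8, 45.1, and 43.7 FPKM in Δset2 1, 2, and 3, against 56.4, 50.4, and 58.0 FPKM in WT 1, 2, and 3. WT 2 was below Δset2 1, so the groups overlapped. The log2 fold change was -0.22 (SE 0.11, adjusted P = 0.247, edgeR). Of 24 other SAGA and NuA4 subunits, 23 could be tested. SUS1, of the deubiquitinating module, was called lower with a log2 fold change of -0.61 (SE 0.12, adjusted P = 0.0209, edgeR), and 0 were called higher. Of all units tested, 0.733% were called lower and 2.84% higher. At an unadjusted P below 0.05 there were 8 of the 23, and 23.6% of all units passed that level. The median of the 23 was 0.05.

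The active PIKK kinases are themselves encoded by long units, and 1 of them was called. TEL1, the ATM homolog of the DNA damage response and telomere maintenance, has a unit of 8738 nt, the longest nuclear unit after CSF1. It had 18.4, 17.3, and 18.0 FPKM in Δset2 1, 2, and 3, against 11.0, 12.4, and 12.0 FPKM in WT 1, 2, and 3. The groups were well separated, and TEL1 rose by a log2 fold change of 0.61 (SE 0.091, adjusted P = 0.00447, edgeR). TOR1, TOR2, and MEC1, with units of 7529, 7908, and 7337 nt, had log2 fold changes of -0.02, 0.03, and 0.09. Of the 7 genes for these kinases and their TTT chaperone, TEL1 was the only gene called by edgeR. Of all units tested, 2.84% were called higher and 0.733% lower.

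TOM1 encodes a HECT ubiquitin ligase with roles in the degradation of excess histones and ribosomal proteins. It had 52.4, 46.6, and 45.7 FPKM in Δset2 1, 2, and 3, against 56.0, 49.4, and 55.3 FPKM in WT 1, 2, and 3. The groups overlapped, and the log2 fold change of -0.14 (SE 0.10, adjusted P = 0.436, edgeR) did not pass. Of the 4 other HECT ligases, 1 was called higher and 0 lower, compared with 2.84% and 0.733% of all units tested. HUL4, the called ligase, rose by 0.63 (SE 0.14, adjusted P = 0.0265, edgeR), at 3.46 FPKM in Δset2 and 2.27 FPKM in WT. HUL5, named after its values were seen, passed by adjusted P alone with 0.56 (SE 0.10, adjusted P = 0.0116, edgeR). In the higher direction 2 of the 4 thus passed the adjusted P, where 4.48% of all units did. RSP5, the essential ligase of this family, had a log2 fold change of 0.03.

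**Figure D2:**
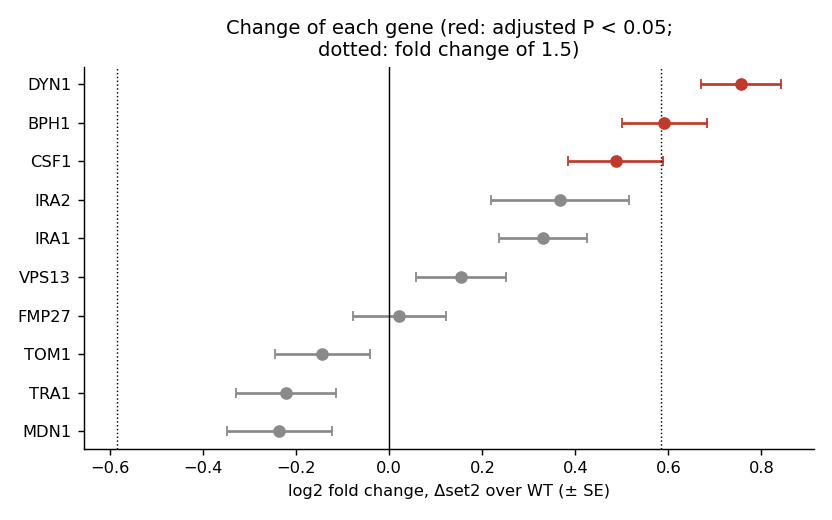
Log2 fold change of each gene, Δset2 over WT, with its SE from edgeR's quasi-likelihood fit (n = 3 each). Genes in red had an adjusted P below 0.05 and dotted lines mark a fold change of 1.5, which DYN1 and BPH1 passed and CSF1 (0.49) did not.

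Read counts of 2 genes in the same library give a ratio free of normalization, and 4 such ratios to MDN1 were taken as a description, with genes chosen after the results were known. There were 0.216, 0.214, and 0.258 DYN1 reads per MDN1 read in Δset2 1, 2, and 3, against 0.112, 0.116, and 0.115 in WT 1, 2, and 3. The Δset2 mean was 2.00 times the WT mean. For BPH1 the Δset2 mean was 1.78 times and for CSF1 1.66 times that of WT, and in all 3 genes each Δset2 ratio lay above each WT ratio. This separation was fixed in advance, because in FPKM every Δset2 library was above every WT library for these 3 genes and below for MDN1. It is therefore no further support for their change. The lower MDN1 in Δset2 also adds to the size of these differences. The ratio of TRA1 to MDN1, which overlapped between the groups, averaged 0.568 ± 0.0543 in Δset2 and 0.561 ± 0.0450 in WT (SD, n = 3 each).

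**Figure D3:**
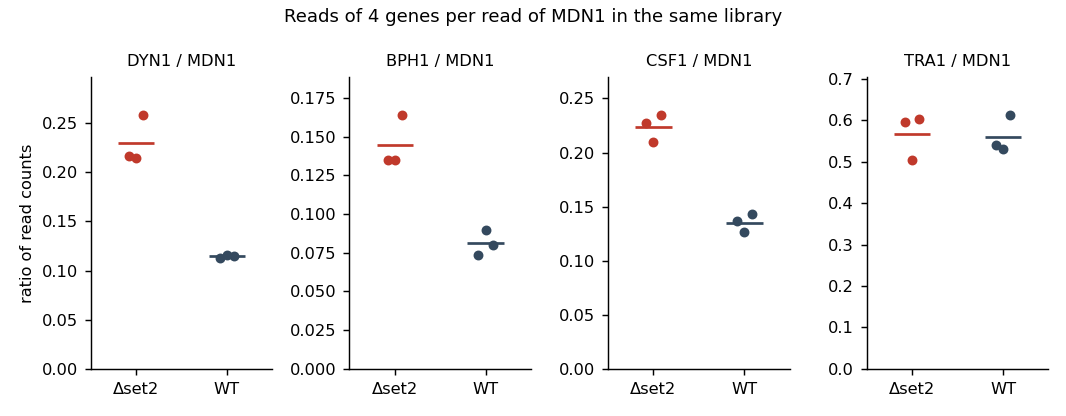
Reads of DYN1, BPH1, CSF1, and TRA1 per read of MDN1 in each Δset2 library (red, left) and WT library (dark, right), with the group mean as a bar. The first 3 ratios were higher in every Δset2 library than in any WT library, which follows from the FPKM of these genes and of MDN1. TRA1 averaged 0.568 in Δset2 and 0.561 in WT.

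The 10 genes spanned a wide range of levels. Among the 5094 nuclear protein-coding units tested, DYN1 stood at percentile 38.0 by mean FPKM over all libraries and IRA2 at percentile 82.0. In Δset2 the means were, from the lowest, 17.0 ± 0.186 FPKM for DYN1, 20.4 ± 0.279 for BPH1, 22.9 ± 1.71 for CSF1, 27.3 ± 1.79 for VPS13, and 34.0 ± 2.02 for FMP27 (SD, n = 3). In WT the same 5 genes were lowest and in the same order, at 10.1 ± 0.422, 13.6 ± 0.927, 16.4 ± 1.42, 24.6 ± 1.48, and 33.7 ± 2.64 FPKM (SD, n = 3). The libraries of neighbors in the WT order did not overlap for these 5 genes. IRA1 followed, while TOM1 and TRA1 overlapped in WT, as did IRA2 and MDN1. The highest mean in Δset2 was that of IRA2 (89.2 ± 13.5 FPKM), and in WT that of MDN1 (74.3 ± 4.25 FPKM; SD, n = 3 each).

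The 3 genes with the lowest levels were those with the largest log2 fold changes. Over the 10 genes, the rank correlation of the log2 fold change with the mean level over all 6 libraries was -0.70 (Spearman's rho, n = 10 genes), and with unit length it was -0.41. Both are descriptions, as the genes share the same 6 libraries and the level includes the values that make up the change. DYN1 and BPH1 were the only members below the median level of tested nuclear protein-coding units (19.6 FPKM), and CSF1 lay at that median, at percentile 50.1.

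Other units of similar length showed a like order. Besides the members, 28 protein-coding units were at least as long as BPH1, 24 of them nuclear, and all were tested. Of the 28, 4 were called higher (TEL1, YPR117W, FLO10, and YFL054C) and 0 lower, compared with 2.84% and 0.733% of all units tested. The median log2 fold change of the 28 was -0.07, and that of the 24 nuclear units was 0.006. COX1 and AI5_ALPHA, the longest of them, are mitochondrial units that overlap each other, so their reads are uncertain, and their log2 fold changes were -0.15 for COX1 (adjusted P = 0.717, edgeR) and -0.19 for AI5_ALPHA (adjusted P = 0.814, edgeR). FLO10, a cell wall flocculin, had 4.01 FPKM in Δset2 and 2.17 FPKM in WT, a log2 fold change of 0.91 (SE 0.14, adjusted P = 0.00522, edgeR), with 5085 of its 7089 nt outside other units. YFL054C, a putative channel-like protein, had 3.45 FPKM in Δset2 and 1.40 FPKM in WT, a log2 fold change of 1.31 (SE 0.15, adjusted P = 0.000835, edgeR), but only 2898 of its 7039 nt lay outside other units. Over the 24 nuclear units the rank correlation of change and level was -0.76, compared with -0.14 over all 5094 nuclear protein-coding units, again as descriptions. Of the 11 below the median level 3 were called higher, and of the 13 at or above it 1 was.

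**Figure D4:**
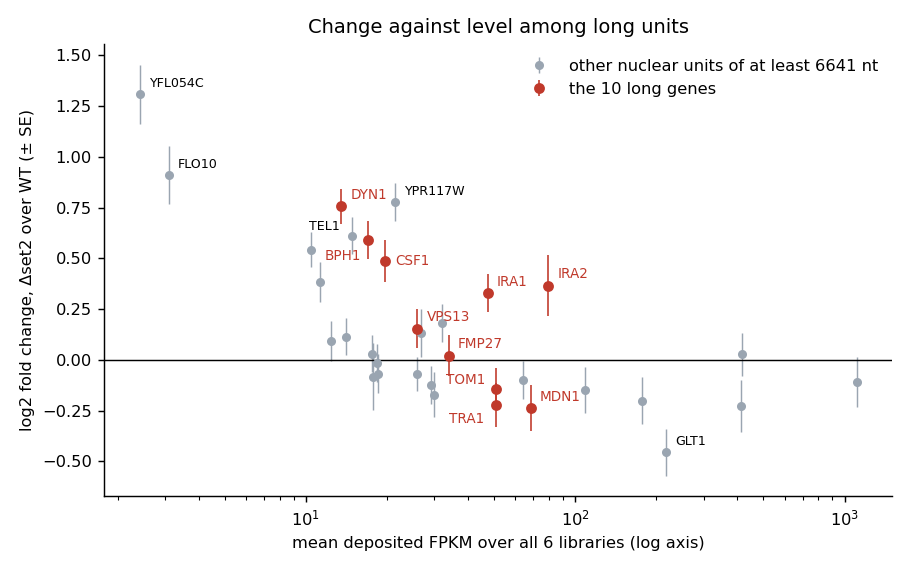
Log2 fold change (Δset2 over WT, with SE) against mean FPKM over all 6 libraries (log axis) for the 10 genes (red) and the 24 other nuclear protein-coding units of at least 6641 nt (gray). DYN1, BPH1, and CSF1 lie with TEL1 and YPR117W at the lower levels with positive changes, and MDN1, TRA1, and TOM1 lie at higher levels with negative ones. Other gray units at the lower levels changed little, such as NUM1 (-0.07), TOR1 (-0.02), TOR2 (0.03), and MEC1 (0.09). Of the 11 gray units below the median level, 3 were called higher.

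By length, the share of nuclear protein-coding units called higher in Δset2 was 1.82% of 1206 units under 1000 nt and 2.13% of 2255 units from 1000 nt to under 2000 nt. It was 3.90% of 1386 units from 2000 nt to under 4000 nt, 8.45% of 213 units from 4000 nt to under 6641 nt, and 17.6% of 34 units of 6641 nt and more, 10 of which are the members. The edge of 6641 nt is the length of BPH1, itself a called member. The called units of the longest class include FLO10 and YFL054C, with only 5085 of 7089 nt and 2898 of 7039 nt outside other units. Without WT 2 the shares in the same 5 classes were 5.52%, 4.73%, 6.63%, 9.81%, and 17.6%, so the differences between classes were smaller. The median log2 fold change did not follow the order of length, at 0.02, -0.001, -0.03, -0.03, and 0.03 in the 5 classes. Long units collect more reads, and the median SE was 0.15 in the shortest class and 0.0995 in the longest; the part of this precision in the shares was not tested.

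Genes next to the members were examined because reads were not resolved by strand. Of the 20 nearest tested protein-coding neighbors, 0 were called by edgeR or by DESeq2. At an unadjusted P below 0.05 there were 3, and 23.6% of all units passed that level. The log2 fold changes of the 20 lay between -0.29 and 0.46. MRS4 and RHO4 were the nearest tested neighbors of DYN1, with log2 fold changes of 0.22 and -0.27. YSR3, which touches the end of DYN1 and lies between it and MRS4, had 0 reads and no stretch outside other units. For BPH1 they were RPS14A with 0.18 and SNT1 with 0.06, and for CSF1 they were SMC4 with 0.14 and GAA1 with -0.27. CUT048, the noncoding unit just upstream of BPH1, had 0.19 (adjusted P = 0.844, edgeR), with 11 to 14 reads per library. Both neighbors of IRA1 had positive values like its own, with 0.34 for YBR139W (adjusted P = 0.103, edgeR) and 0.40 for YBR141C (adjusted P = 0.107, edgeR). The counts do not show where in a gene or on which strand its reads lie, so full-length transcripts and those that begin within the gene cannot be told apart.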

How the data were processed

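The authors mapped trimmed 76-nt single reads to sacCer3 with TopHat2 2.1.0, kept reads with a single position and sufficient mapping quality (SAMtools 1.2), and deposited read counts per unit of Ensembl EF4.74 plus noncoding units, assigned by summarizeOverlaps in Union mode, ignoring strand. FPKM values were deposited by the authors, with implied library sizes proportional to the DESeq2 size factors of the counts (largest deviation 0.00162%). Their own fold changes, test statistics, and P values were not used. There were 0 unused per-sample columns.

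Differential expression was tested on the deposited counts by edgeR 4.0.16 and limma 3.58.1 in R 4.3.3 (TMM, filterByExpr, glmQLFTest, Benjamini-Hochberg over 5317 units). SEs were derived from the F statistic (absolute log2 fold change over the root of F). Fits were tested on simulated data. FPKM served for levels. The members and lists were chosen with earlier results of these data known. MCP1 was matched through its RefSeq locus tag (YOR228C), and overlaps were taken over whole units, introns included, so that a spliced unit such as AI5_ALPHA can hold reads with no stretch of its own. Named genes were the members, the called genes of each list (otherwise the 2 with the smallest P) or of the other long units, and the 3 longest of these; ATG2, HUL5, NUM1, RIX1, RSP5, TOR1, TOR2, MEC1, MF(ALPHA)2, ACC1, FAB1, HFA1, GLT1, and genes beside the members were added after their values were seen. DESeq2 1.42.0, other normalizations and filters, thinning, limma on log2 FPKM with pseudocounts of 1 and 0.1, a replicate block, and left-out libraries were alternatives. Figures used Python 3.11.15 and matplotlib 3.10.9. The upstream sequence of DYN1 is not reported here.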

Additional observations from a re-analysis of the deposited data

How the results depend on the processing

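DYN1 was called in each of the 16 alternatives run, and 3 to 4 of the other long units were. The number of members called fell to 1 (DYN1) with DESeq2, DESeq2 size factors in edgeR, the replicate block, and limma on log2 FPKM with either pseudocount, and was between 1 and 2 with single libraries left out; BPH1 is near the fold threshold. By adjusted P alone it was 1 with the block and from 2 to 5 with libraries left out. Units called numbered 190, 75 with the replicate block, 123 after thinning to the smallest total, which leaves fewer reads, and 80 to 373 with libraries left out, the highest without WT 2. The cause of these differences was not tested. The log2 fold change of FMP27 turned to -0.0212 after thinning and lay between -0.0300 and 0.0873 with libraries left out. Same-numbered libraries did not vary together (correlations of -0.36, -0.39, and -0.14), while Δset2 2 and WT 1 had 0.37 and Δset2 1 and WT 2 had 0.34. These are correlations of deviations from each group's own mean of 3 libraries, so they cannot exclude a pairing by number. No scaling moved the median of all units by more than 0.019 on the log2 scale. BPH1 and CSF1 had the fewest reads, 688 and 1071 in the smallest library.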

Other observations

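Of the 28 other long units, 6 passed the adjusted P in the higher direction and 1 in the lower. Of all 5317 units tested, 238 and 94 did. Among the other long units, 3 passed by adjusted P alone, without the fold threshold, and were named after their values were seen. FAB1, the kinase that makes phosphatidylinositol 3,5-bisphosphate on the vacuole, had 12.3 FPKM in Δset2 and 8.52 FPKM in WT, a log2 fold change of 0.54 (adjusted P = 0.00646, edgeR). HFA1, the mitochondrial acetyl-CoA carboxylase, had 12.7 FPKM in Δset2 and 9.80 FPKM in WT, a log2 fold change of 0.38 (adjusted P = 0.0477, edgeR), while its cytosolic paralog ACC1 had -0.23 (adjusted P = 0.314, edgeR) at a level of 378 FPKM in Δset2 and 445 FPKM in WT. GLT1, glutamate synthase, was lower, at 183 FPKM in Δset2 and 252 FPKM in WT, a log2 fold change of -0.45 (adjusted P = 0.0467, edgeR).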
